A study of Mus musculus with 6 samples.

Results

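The 10 genes Klf2, Klf3, Klf4, Klf5, Klf6, Klf7, Klf10, Klf11, Klf13 and Klf15 encode Kruppel-like factors (KLFs). They were taken by name from a list of the family, with earlier results of these data known, from the 47069 gene identifiers counted in inguinal subcutaneous white adipose tissue (SC-WAT), the large fat pad of the mouse groin. All 10 were counted, and all 10 passed the filter on low counts that left 17667 genes for testing. RNA was sequenced from whole pads, 1 library per mouse, of 3 female mice of each genotype, Egr1+/+ and Egr1-/-, and the question was how the transcriptome of SC-WAT differs when Egr1 is missing. Egr1 encodes the zinc-finger transcription factor EGR1, an immediate-early gene product. All 6 mice were 2 weeks old, of C57BL/6 background, untreated as far as the sample records say, and born to heterozygous parents. The mutant mice lack functional Egr1 in every cell of the body and from conception, not in fat cells alone. Their allele holds a LacZ reporter in the 5′ leader, and its reading frame is broken ahead of the zinc fingers. The mice came from 4 litters, and 1 pair across the genotypes were littermates, without it being stated which.

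KLFs bind GC-rich DNA and CACCC boxes through a C-terminal array of C2H2 zinc fingers, while their differing N-terminal parts recruit activators or repressors. In adipose tissue they act at successive steps of fat cell differentiation. KLF4 and KLF5 are known as promoters of adipogenesis, KLF4 through Cebpb and KLF5 through Pparg. KLF6 promotes it by repressing the preadipocyte gene Dlk1. KLF2, KLF3 and KLF7 are known as inhibitors of adipogenesis. KLF15 acts later, on the insulin-responsive glucose transporter gene Slc2a4 (GLUT4), and its own gene responds to glucocorticoids and fasting. KLF10, KLF11 and KLF13 belong to the branch that recruits the SIN3A corepressor.

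The promoters of the genes were read from RefSeq on GRCm38.p6, as 250 bases before and 50 bases from the start site, and 8 of the 10 genes had an entry, all except Klf5 and Klf10. A total of 3 kinds of motif were searched on both strands, and matches may overlap one another. The 9-base EGR site GCGNGGGCG, which is the kind of site bound by EGR1, had a match in the promoters of Klf2, Klf3, Klf4 and Klf15, that is in 4 of 8, and in 5.55% of all 32851 promoters. The GC box GGGCGG had a match in 8 of 8, against 35.7% of all promoters. The CACCC box, the site of KLFs themselves, had a match in 5 of 8, against 57.5% of all promoters. The promoters of the 8 genes were rich in G and C, at 58.3% to 77.7% against a median of 52.7% over all promoters. A match describes letters in a window and not a bound site. The 4 promoters with a match to the EGR site are shown, and that of Klf13 beside them, since Klf13 had no such match but did not overlap between the genotypes in its level. Capitals mark the matches to any of the 3 motifs, and the strand of each sequence is that of its gene.
Klf2 (chr8:72318812-72319111, plus strand): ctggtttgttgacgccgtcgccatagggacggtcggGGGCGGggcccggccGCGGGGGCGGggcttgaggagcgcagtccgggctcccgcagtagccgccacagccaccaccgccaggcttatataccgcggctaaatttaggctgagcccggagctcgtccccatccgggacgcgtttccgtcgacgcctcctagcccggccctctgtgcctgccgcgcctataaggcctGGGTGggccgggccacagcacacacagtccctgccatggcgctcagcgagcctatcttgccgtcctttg
Klf3 (chr5:64803271-64803570, plus strand): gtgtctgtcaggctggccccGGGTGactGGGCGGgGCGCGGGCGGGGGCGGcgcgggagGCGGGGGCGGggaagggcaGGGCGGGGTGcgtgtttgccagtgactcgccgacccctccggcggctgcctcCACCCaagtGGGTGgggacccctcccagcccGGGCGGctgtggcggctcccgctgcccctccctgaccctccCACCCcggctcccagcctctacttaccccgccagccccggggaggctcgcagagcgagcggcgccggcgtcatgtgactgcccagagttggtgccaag
Klf4 (chr4:55532426-55532725, minus strand): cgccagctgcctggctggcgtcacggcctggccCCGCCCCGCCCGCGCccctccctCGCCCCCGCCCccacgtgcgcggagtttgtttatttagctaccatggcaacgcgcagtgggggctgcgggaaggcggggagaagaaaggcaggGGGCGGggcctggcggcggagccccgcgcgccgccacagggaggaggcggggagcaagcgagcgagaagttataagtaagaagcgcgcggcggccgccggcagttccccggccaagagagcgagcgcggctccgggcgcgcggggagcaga
Klf15 (chr6:90462326-90462625, plus strand): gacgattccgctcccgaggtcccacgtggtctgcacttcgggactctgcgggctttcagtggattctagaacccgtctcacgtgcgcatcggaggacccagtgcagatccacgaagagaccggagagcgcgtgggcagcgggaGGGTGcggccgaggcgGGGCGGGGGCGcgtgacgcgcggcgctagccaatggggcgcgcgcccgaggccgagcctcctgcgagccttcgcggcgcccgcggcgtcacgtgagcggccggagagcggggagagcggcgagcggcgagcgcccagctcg
Klf13 (chr7:63938866-63939165, minus strand): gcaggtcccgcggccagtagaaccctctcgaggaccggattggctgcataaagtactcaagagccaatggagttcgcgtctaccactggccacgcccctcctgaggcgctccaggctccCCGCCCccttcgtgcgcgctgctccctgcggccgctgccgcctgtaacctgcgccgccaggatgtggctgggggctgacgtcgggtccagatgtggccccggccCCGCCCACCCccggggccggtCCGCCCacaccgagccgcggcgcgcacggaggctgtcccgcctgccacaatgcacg
The Klf3 promoter held 3 matches to the EGR site, the Klf4 promoter 2, and those of Klf2 and Klf15 1 each. In Klf2 the match began 199 bases before the start site, in Klf15 89 bases before it, and in Klf3 and Klf4 the matches began between 191 and 215 bases before it. The Klf13 promoter held 3 GC boxes and 1 CACCC box.

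Levels are given as CPM, the read count of a gene relative to the size of its library, with library sizes normalized by TMM. The depth was 29661984 to 42357981 gene counts per mouse, of which mitochondrial genes took 50.0% to 66.3%. Egr1 itself stood at 10.3, 8.02 and 16.5 CPM in the 3 Egr1+/+ mice and at 3.09, 2.71 and 1.84 CPM in the 3 Egr1-/- mice, so every mouse stood on its labelled side. Its log2 fold change of -2.19 ± 0.299 (SE) had a Benjamini-Hochberg adjusted p of 0.0878 in the quasi-likelihood (QL) test of edgeR. The 10 adipocyte markers had a summed level of 7057 to 9000 CPM, above that of each other cell type list in each mouse. All 10 passed the filter on low counts, but so did all 10 skeletal muscle and all 10 lymphocyte markers. Passing that filter therefore does not tell the tissue. The pads also held RNA of other cell types, in amounts that varied by mouse. The 10 skeletal muscle markers summed to 253 to 3807 CPM in Egr1+/+ mice and to 135 to 3021 CPM in Egr1-/- mice, highest in Egr1+/+ replicate 2 and Egr1-/- replicate 3. The 10 lymphocyte markers summed to 131 to 143 CPM in Egr1+/+ mice and to 96.9 to 260.8 CPM in Egr1-/- mice, highest in Egr1-/- replicate 2. In a bulk sample, fewer cells of a type and less RNA per cell cannot be told apart.

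In Egr1+/+ SC-WAT, Klf6 was the most abundant of the 10 genes for its length and Klf5 the least. Per kb of exon, the level of Klf6 was 36.5 ± 4.15 CPM per kb (SD, n = 3), that of Klf2 8.19 ± 0.851 and that of Klf10 8.11 ± 0.808. Klf4 had 6.93 ± 0.999 CPM per kb, Klf13 5.76 ± 0.837, Klf3 4.90 ± 0.104 and Klf7 4.07 ± 0.375. Klf15 had 3.32 ± 1.38 CPM per kb, Klf11 2.66 ± 0.486 and Klf5 0.209 ± 0.0623. Of the 9 neighbouring pairs in this order, 4 had Egr1+/+ ranges that did not overlap, namely Klf6 above Klf2, Klf13 above Klf3, Klf3 above Klf7 and Klf11 above Klf5. Klf2 and Klf10, Klf10 and Klf4, Klf4 and Klf13, Klf7 and Klf15, and Klf15 and Klf11 overlapped. With the longest annotated transcript as the length in place of all exons, Klf6 stayed first and Klf7, Klf15, Klf11 and Klf5 stayed last in the same order, while Klf10 and Klf3 moved ahead of Klf2. The 10 genes summed to 361.6, 392.6 and 397.6 CPM in Egr1+/+ mice and to 400.7, 385.2 and 358.6 CPM in Egr1-/- mice, and these ranges overlapped.

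**Figure D1:**
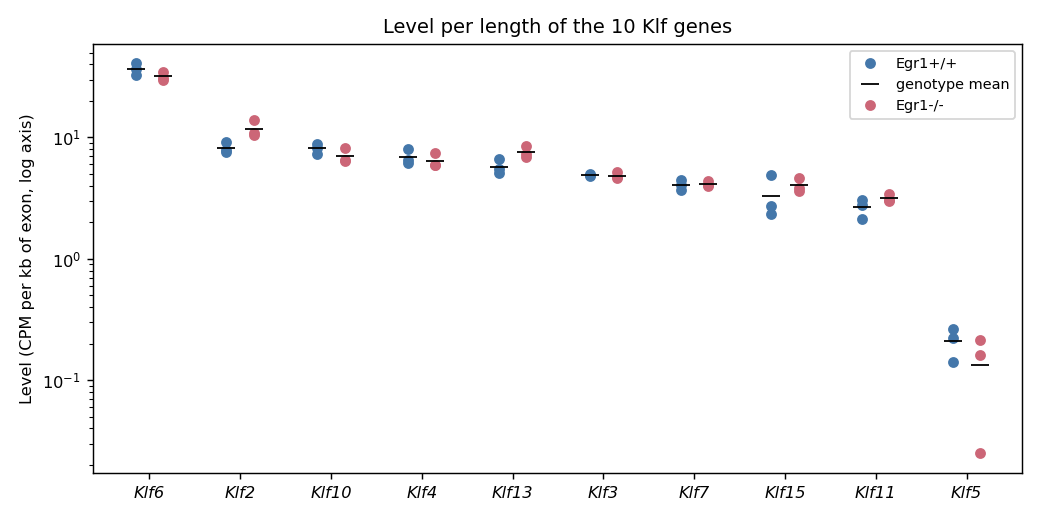
Level of the 10 Klf genes per kb of annotated exon (CPM per kb, log axis), ordered by the Egr1+/+ mean. Points are single mice (blue Egr1+/+, red Egr1-/-, 3 each) and black lines genotype means. Klf6 lies above the other 9 genes in all mice and Klf5 below them in all mice.

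Across the genotypes, 5 of the 10 genes had a positive and 5 a negative log2 fold change (Egr1-/- over Egr1+/+), with a median of 0.01 beside 0.00 over all genes tested. None of the 10 passed an adjusted p of 0.05 in the edgeR QL test, and that test called 3 of 17667 genes, or 0.0170%. At an unadjusted p under 0.05, 2 of the 10 were past the threshold, Klf2 and Klf13, both higher in Egr1-/- mice. Over all genes the share past that threshold was 10.7%, with 5.06% higher and 5.60% lower. DESeq2 called none of the 10 at an adjusted p of 0.05, against 1.84% of all genes, while its unadjusted p was under 0.05 for Klf2 and Klf13. Klf2 and Klf13 were also the 2 of the 10 genes of which every Egr1-/- mouse stood above every Egr1+/+ mouse, a pattern seen in 8.15% of all genes tested. None of the 10 had every Egr1-/- mouse below every Egr1+/+ mouse, which was seen in 8.10% of all genes tested. With 10 genes, 1 gene alone makes up 10%, so counts of 2 and 0 do not set the list apart from these shares.

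**Figure D2:**
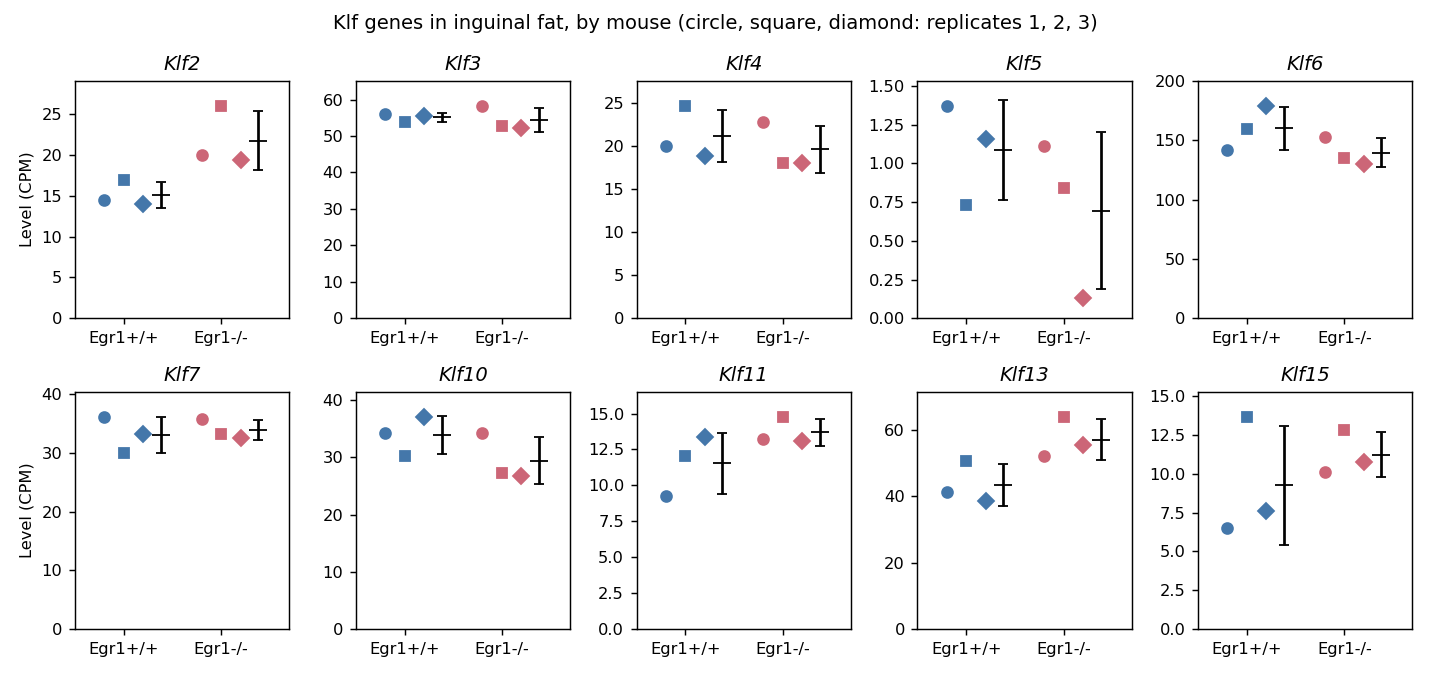
Level of each of the 10 Klf genes (CPM, linear axes from 0) in the 3 Egr1+/+ (blue) and 3 Egr1-/- (red) mice, with black bars for mean ± SD. The red points lie wholly above the blue ones in the panels of Klf2 and Klf13, and the genotypes overlap in the other 8.

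**Figure D3:**
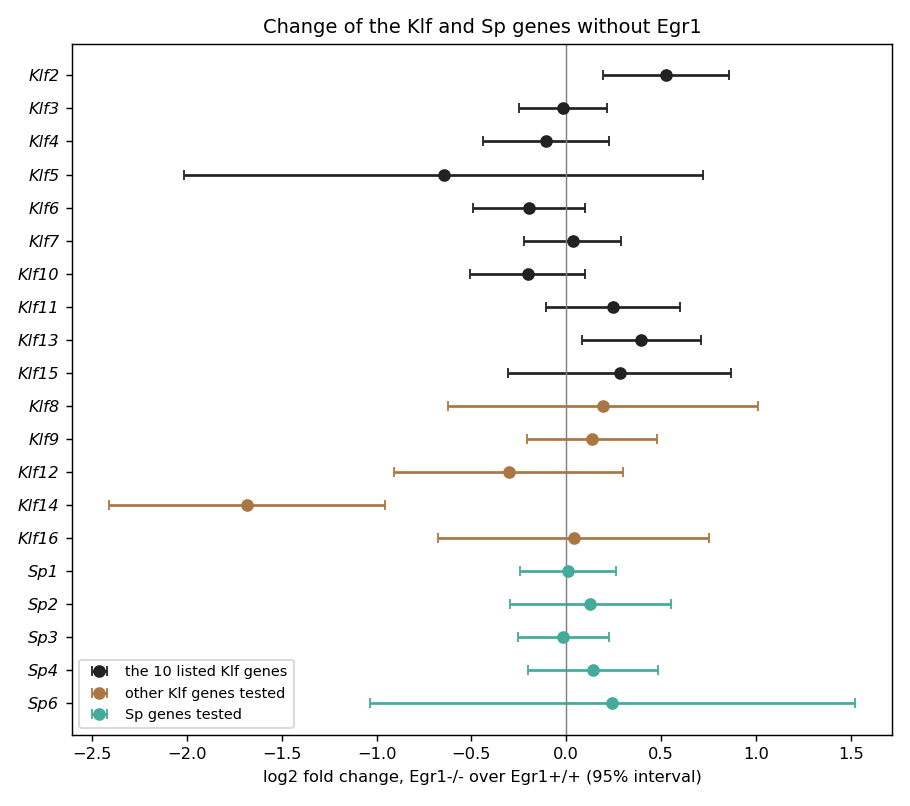
Log2 fold change with its 95% interval for the 10 Klf genes (black), 5 other Klf genes that passed the filter (brown) and 5 Sp genes (green). Intervals are unadjusted for the number of genes; those of Klf2 and Klf13 lie above 0, that of Klf14 lies below 0, and the others span 0.

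Among the inhibitors of adipogenesis, Klf2 had the lowest p of the 10 genes. KLF2 represses Pparg in preadipocytes and is also known for its part in endothelial cells under flow and in resting T lymphocytes. Klf2 (ENSMUSG00000055148.7, chr8:72319033-72321656, plus strand) was measured at 14.5, 16.9 and 14.0 CPM in Egr1+/+ mice and at 20.0, 26.0 and 19.4 CPM in Egr1-/- mice. All 3 Egr1-/- mice lay above all 3 Egr1+/+ mice, and Egr1-/- replicate 2 was the highest. The means were 15.1 ± 1.57 and 21.8 ± 3.63 CPM (SD, n = 3 each), a 1.44-fold difference. Its log2 fold change was 0.53 ± 0.147 (SE; 95% interval 0.19 to 0.86). The adjusted p was 0.256 in the edgeR QL test and 0.112 in DESeq2, so the difference did not pass correction with either tool. An exact two-sided permutation test over the mice gave p = 0.1, the smallest p that 3 against 3 allows. Leaving out single mice moved the log2 fold change between 0.39 and 0.61, with the lowest value without Egr1-/- replicate 2. Scaling by total counts alone, it was 0.40 with an unadjusted p of 0.101.

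Markers of the cell types that express Klf2 were set beside it. Egr1-/- replicate 2, the highest mouse for Klf2, had the highest summed lymphocyte markers, at 260.8 CPM, where the other Egr1-/- mice had 96.9 and 176.5 CPM. All 10 lymphocyte markers had a positive log2 fold change, with a median of 0.37. Of the 10, 1, Cd79a, had an unadjusted p under 0.05, against 10.7% of all genes tested. The genotypes overlapped in each of the 10 lymphocyte markers. In Egr1-/- replicate 1 they had the lowest sum of the 6 mice, and its Klf2 level was above that of each Egr1+/+ mouse. Without Egr1-/- replicate 2 the median over the lymphocyte markers was -0.03, and the log2 fold change of Klf2 was 0.39. The 10 endothelial markers had a median log2 fold change of 0.03, with 7 positive and 3 negative. Their sum was 553, 527 and 463 CPM in Egr1+/+ mice and 633, 431 and 464 CPM in Egr1-/- mice, so the genotypes overlapped. The part of these cell types in the level of Klf2 was not tested.

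Klf3 and Klf7, the other inhibitors, were close to even between the genotypes. Klf3 (ENSMUSG00000029178.14, chr5:64803388-64832901, plus strand), whose product represses through the corepressor CtBP, was measured at 56.1, 53.8 and 55.4 CPM in Egr1+/+ mice and at 58.1, 52.9 and 52.3 CPM in Egr1-/- mice. Over the Egr1+/+ mice this was the least variable of the 10 genes, with a coefficient of variation of 2.12%. Over the Egr1-/- mice Klf7 was the least variable, at 5.16% against 5.90% for Klf3. The log2 fold change of Klf3 was -0.02 ± 0.103 (SE). Its 95% interval of -0.25 to 0.22 leaves room for a ratio of Egr1-/- to Egr1+/+ from 0.840 to 1.16. Klf7 (ENSMUSG00000025959.13, chr1:64029447-64122282, minus strand) was measured at 36.1, 30.0 and 33.2 CPM in Egr1+/+ mice and at 35.9, 33.2 and 32.6 CPM in Egr1-/- mice. Its highest and lowest mouse were both Egr1+/+. The log2 fold change of Klf7 was 0.03 ± 0.112 (SE; 95% interval -0.22 to 0.29), and it turned to -0.12 when scaled by total counts alone, a scaling that moved the median of all genes to -0.15. Klf3 and Klf7 each overlap an annotated gene on the other strand of the same locus, Gm20033 and Gm26649. The matching stretches were 405 bases for Gm20033 and 2826 bases for Gm26649. Gm20033 had 4 to 13 and Gm26649 10 to 25 counts per mouse. If strand was not used in counting, reads over a shared stretch could have gone to either gene or to none, so the levels of Klf3 and Klf7 are uncertain by an amount that these counts do not bound. Klf3 also overlaps C230096K16Rik on its own strand, which had 134 to 178 counts against 1616 to 2387 for Klf3.

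The early activators of adipogenesis, Klf4 and Klf5, did not differ beyond the spread between mice. Klf4 (ENSMUSG00000003032.8, chr4:55527143-55532466, minus strand) was measured at 20.0, 24.6 and 18.9 CPM in Egr1+/+ mice and at 22.8, 18.0 and 18.0 CPM in Egr1-/- mice. The highest mouse was Egr1+/+ replicate 2, and without it the log2 fold change moved from -0.11 to 0.02. The 95% interval for Klf4 was -0.44 to 0.23. Klf5 (ENSMUSG00000005148.7, chr14:99298691-99315036, plus strand) was the one gene of the 10 near the detection limit of these libraries. Its raw counts were 47, 22 and 50 with Egr1 and 37, 26 and 4 without it, or 1.37, 0.732 and 1.16 CPM and 1.11, 0.839 and 0.129 CPM. Egr1-/- replicate 3 was far below the other 5 mice, which overlapped. The log2 fold change of Klf5 was -0.65 ± 0.605 (SE; 95% interval -2.01 to 0.72), and without Egr1-/- replicate 3 it was -0.16. The wide interval leaves the direction of Klf5 undetermined.

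Klf6, the most abundant member, had a lower mean in Egr1-/- mice within the spread of the mice. KLF6 is a widely expressed factor, first known as an immediate-early gene product of liver stellate cells. Klf6 (ENSMUSG00000000078.6, chr13:5861482-5870394, plus strand) was measured at 142.3, 160.0 and 178.7 CPM in Egr1+/+ mice and at 153.3, 135.6 and 130.3 CPM in Egr1-/- mice. Of the Egr1-/- mice, 2 lay below every Egr1+/+ mouse and replicate 1 lay among them. The log2 fold change was -0.20 ± 0.131 (SE; 95% interval -0.49 to 0.10; adjusted p = 0.651 in the edgeR QL test). Dlk1, the preadipocyte gene that KLF6 represses, was measured at 2.74, 1.96 and 2.48 CPM in Egr1+/+ mice and at 4.02, 1.90 and 2.52 CPM in Egr1-/- mice, which overlapped.

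Of the SIN3A-recruiting branch, Klf13 was higher in all Egr1-/- mice, Klf11 overlapped with a higher mean and Klf10 overlapped with a lower one. KLF13 is known as an activator of the chemokine gene Ccl5 in T lymphocytes. Klf13 (ENSMUSG00000052040.10, chr7:63886351-63938915, minus strand) was measured at 41.2, 50.4 and 38.4 CPM in Egr1+/+ mice and at 52.1, 63.8 and 55.3 CPM in Egr1-/- mice. The genotypes did not overlap, but Egr1+/+ replicate 2 came close to Egr1-/- replicate 1. The means were 43.3 ± 6.30 and 57.0 ± 6.06 CPM (SD, n = 3 each), a 1.32-fold difference. The log2 fold change of Klf13 was 0.40 ± 0.138 (SE; 95% interval 0.08 to 0.71). It had an unadjusted p of 0.0183 and an adjusted p of 0.344 in the edgeR QL test, and an adjusted p of 0.260 in DESeq2. Leaving out Egr1+/+ replicate 1, Egr1+/+ replicate 3 or Egr1-/- replicate 2 brought its unadjusted p to 0.067, 0.0801 and 0.0628, with log2 fold changes of 0.35, 0.31 and 0.31. Scaling by total counts alone, the log2 fold change of Klf13 was 0.27 with an unadjusted p of 0.249. Klf13 overlaps 2 annotated genes on the other strand, Gm27252 with 9 to 18 and E030018B13Rik with 0 to 10 counts per mouse, and shared reads there are likewise uncertain. Egr1-/- replicate 2, the mouse with the highest lymphocyte markers, was the highest for Klf13 as well, and the part of lymphocytes in it was not tested.

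KLF10 and KLF11 are the TGF-beta-inducible early gene products, TIEG1 and TIEG2. Klf10 (ENSMUSG00000037465.9, chr15:38291463-38300706, minus strand) was measured at 34.3, 30.3 and 37.0 CPM in Egr1+/+ mice and at 34.2, 27.3 and 26.8 CPM in Egr1-/- mice. As for Klf6, Egr1-/- replicates 2 and 3 lay below every Egr1+/+ mouse and replicate 1 lay among them. The log2 fold change of Klf10 was -0.20 ± 0.135 (SE; 95% interval -0.51 to 0.10). Without Egr1-/- replicate 1 it was -0.32 with an unadjusted p of 0.0382. Klf11 (ENSMUSG00000020653.11, chr12:24651274-24662789, plus strand) was measured at 9.23, 12.0 and 13.4 CPM in Egr1+/+ mice and at 13.2, 14.8 and 13.1 CPM in Egr1-/- mice. Egr1+/+ replicate 1 was the lowest, and without it the log2 fold change of Klf11 dropped from 0.25 to 0.09. Its 95% interval was -0.11 to 0.60.

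Klf15, which acts in mature adipocytes, varied most between the Egr1+/+ mice of the 10 genes, with a coefficient of variation of 41.5%. Klf15 (ENSMUSG00000030087.11, chr6:90462576-90475238, plus strand) was measured at 6.52, 13.7 and 7.61 CPM in Egr1+/+ mice and at 10.1, 12.8 and 10.7 CPM in Egr1-/- mice. Egr1+/+ replicate 2 was the highest of all 6 mice, 1.93 times the mean of the other Egr1+/+ mice, and the other 2 were below all Egr1-/- mice. The log2 fold change of Klf15 was 0.28 ± 0.260 (SE; 95% interval -0.31 to 0.87; adjusted p = 0.760 in the edgeR QL test). It depended on that mouse: without Egr1+/+ replicate 2 it was 0.67 with an unadjusted p of 0.0042, and without Egr1+/+ replicate 1 it was 0.07.

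Of 8 listed glucocorticoid-responsive genes, 7 had the same highest Egr1+/+ mouse as Klf15, replicate 2, and Pdk4 did not. Fkbp5, an immunophilin gene that glucocorticoids induce, was measured at 7.80, 23.6 and 8.44 CPM in Egr1+/+ mice and at 19.4, 19.4 and 16.4 CPM in Egr1-/- mice. Tsc22d3, which encodes the glucocorticoid-induced leucine zipper protein, was measured at 37.2, 98.0 and 47.9 CPM in Egr1+/+ mice and at 72.8, 70.8 and 71.7 CPM in Egr1-/- mice. Both genes were named after their values had been seen, and in both Egr1+/+ replicate 2 stood above, and the other Egr1+/+ mice below, all Egr1-/- mice. This order, seen for Klf15, was found in 4 of the 8 genes, the others being Zbtb16 and Mt2. The shares of all genes with that highest mouse or that order were not counted, so neither count sets these genes apart. All 8 had a positive log2 fold change, with a median of 0.41 beside 0.00 over all genes. That median was 0.16 without Egr1+/+ replicate 1, 0.27 without Egr1+/+ replicate 3 and 0.66 without Egr1+/+ replicate 2, so it rested on which Egr1+/+ mice were included. Of the 8 genes, 2 had an unadjusted p under 0.05, Pdk4 (0.51 on the log2 scale) and Sgk1 (0.43), against 10.7% of all genes tested. None of the 8 passed an adjusted p of 0.05 in the edgeR QL test or in DESeq2. Over 10 circadian output genes the median was 0.28, and none was past correction with either tool. Of the 10, 2 had an unadjusted p under 0.05, Per2 at 0.46 and Tef at 0.38, against the same 10.7% of all genes. The circadian median was 0.13 without Egr1+/+ replicate 2 and 0.15 without Egr1+/+ replicate 1. Time of day and hours since feeding at tissue collection were not given in the sources used here, and their part in Klf15 was not tested. Egr1+/+ replicate 2 also had the highest skeletal muscle markers, at 3807 CPM. Egr1-/- replicate 3, with 3021 CPM of these markers, had 10.7 CPM of Klf15. The part of skeletal muscle in Klf15 was not tested.

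Mice differed in which members they held most of. Within the Egr1+/+ group, replicate 1 was highest in Klf3, Klf5 and Klf7, replicate 2 in Klf2, Klf4, Klf13 and Klf15, and replicate 3 in Klf6, Klf10 and Klf11. Within the Egr1-/- group, replicate 1 was highest in Klf3, Klf4, Klf5, Klf6, Klf7 and Klf10, and replicate 2 in Klf2, Klf11, Klf13 and Klf15. Replicate 3 of that group was highest in none and lowest in 8 of the 10. Klf2, Klf13 and Klf15 thus shared the highest mouse in both genotypes, as did Klf3, Klf5 and Klf7, and as did Klf6 and Klf10. With 3 mice per genotype, genes share a highest or lowest mouse readily, and the shares over all genes were not counted. In log2 CPM, Egr1-/- replicate 2 differed from the mean of the 6 mice by 0.53, 0.37 and 0.38 in Klf2, Klf13 and Klf15, and by -0.14 and -0.20 in Klf6 and Klf10.

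**Figure D4:**
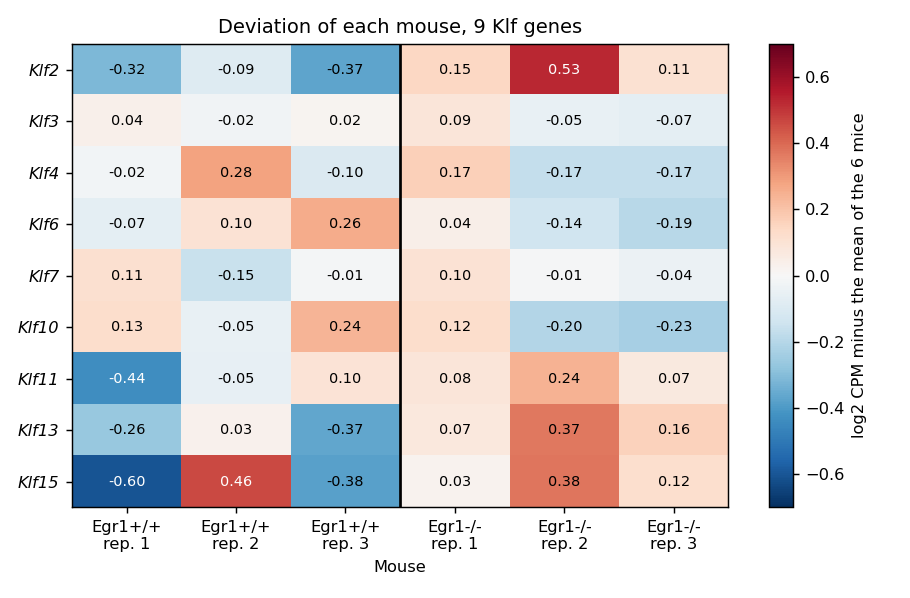
Difference of each mouse from the mean of the 6 mice (log2 CPM) for 9 Klf genes, without Klf5, whose counts were low; red is above and blue below the mean, and the black line parts the genotypes. The Klf2 row is below the mean in the 3 Egr1+/+ and above it in the 3 Egr1-/- mice, and Egr1+/+ replicate 1 has the largest deviation, -0.60 in Klf15.

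In the rest of the family, the largest difference was in Klf14, an intronless and maternally expressed imprinted gene that is known as a regulator of adipose gene expression. Klf14 was measured at 3.78, 3.50 and 6.47 CPM in Egr1+/+ mice and at 1.92, 1.07 and 1.29 CPM in Egr1-/- mice. All 3 Egr1-/- mice lay below all 3 Egr1+/+ mice. Egr1+/+ replicate 3, the mouse highest in Egr1, was the highest for Klf14. With 3 mice per genotype a highest mouse is readily shared, and a link between the levels of Egr1 and Klf14 was not tested. Its log2 fold change was -1.68 ± 0.321 (SE; 95% interval -2.41 to -0.96), and Klf14 was 3.21-fold lower in Egr1-/- mice. The adjusted p was 0.160 in the edgeR QL test, so Klf14 did not pass in that test, and it was 3.7e-04 in DESeq2, so that Klf14 did pass in DESeq2. Without each mouse in turn, the log2 fold change of Klf14 ranged from -1.96 to -1.35. Klf9, a glucocorticoid-responsive relative, had 67.3 ± 10.4 and 74.0 ± 10.3 CPM (SD, n = 3 each) and a log2 fold change of 0.14. Klf8, Klf12 and Klf16 were each below 3 CPM in all mice, with log2 fold changes of 0.19, -0.30 and 0.04 and intervals that spanned 0. Klf1 and Klf17 were too low to be tested. The related Sp factors, which bind the same GC boxes, had small differences where well counted: the log2 fold changes of Sp1, Sp2, Sp3 and Sp4 were 0.01, 0.13, -0.02 and 0.14. Sp6, at few counts, had 0.24 with a 95% interval of -1.04 to 1.52, which leaves its direction undetermined. None of these 5 had an unadjusted p under 0.05, and Sp5, Sp7, Sp8 and Sp9 were too low to be tested.

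The cofactors of KLFs were in the main even between the genotypes. Of 12 listed cofactors and ubiquitin ligases, 8 had a positive and 4 a negative log2 fold change, with a median of 0.07, and none passed an adjusted p of 0.05 in the edgeR QL test or in DESeq2. At an unadjusted p under 0.05 there were 2 of the 12, against 10.7% of all genes tested. Ep300, the acetyltransferase p300, was measured at 80.4, 67.1 and 75.0 CPM in Egr1+/+ mice and at 84.1, 95.3 and 91.1 CPM in Egr1-/- mice, with a log2 fold change of 0.28. Wwp1, a ubiquitin ligase that targets KLF2 and KLF5 for degradation, was measured at 101.1, 104.6 and 101.6 CPM in Egr1+/+ mice and at 91.7, 75.3 and 83.2 CPM in Egr1-/- mice. Its log2 fold change was -0.30, and Ep300 and Wwp1 each had genotypes that did not overlap. Over all genes tested, 8.15% lay wholly higher and 8.10% wholly lower in Egr1-/- mice. The counts in this short list do not set it apart from these shares. Ctbp2 and Crebbp, next by p, had log2 fold changes of -0.26 and 0.16 and overlapped.

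The genes that KLFs are known to act on, or that act on them, in adipocytes had a median log2 fold change of 0.28 over 10 genes, 6 of them positive, and of 0.16 to 0.45 without single mice (lowest without Egr1+/+ replicate 2, highest without Egr1-/- replicate 2). Pparg, the master regulator of fat cell differentiation and a target of both KLF2 and KLF5, was measured at 154.7, 113.4 and 149.0 CPM in Egr1+/+ mice and at 135.5, 126.3 and 137.1 CPM in Egr1-/- mice, which overlapped. Slc2a4, the GLUT4 gene, was at 75.1, 52.1 and 63.5 CPM in Egr1+/+ mice and at 76.9, 64.9 and 96.3 CPM in Egr1-/- mice, and it overlapped too. Pparg, Slc2a4 and Dlk1 were named for their link to a member after their values had been seen. Cebpb, through which KLF4 acts, was higher in all Egr1-/- mice, at 27.8, 20.5 and 29.1 CPM against 14.5, 14.8 and 19.0 CPM. Its log2 fold change of 0.68 had an adjusted p of 0.226 in the edgeR QL test and 0.026 in DESeq2. Ucp1, the uncoupling protein of brown and beige adipocytes, had a log2 fold change of 1.22 with an adjusted p of 0.151 in the edgeR QL test and 3.9e-07 in DESeq2. Adipoq and Cebpa had log2 fold changes of -0.41 and 0.32, past correction with neither tool. Over 16 immediate-early genes, the class in which Klf4, Klf6 and Klf10 are often counted, the median was 0.11 (0.04 without Egr1+/+ replicate 1). Of the 16, 3 had an unadjusted p under 0.05, against 10.7% of all genes tested. These were Egr3 at 1.02, Junb at 0.52 and Nr4a1 at 0.49 on the log2 scale, and none passed an adjusted p of 0.05 with either tool.

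Marker genes of other cell types moved with the genotype in several lists, and these stand beside every value given for the 10 genes. The 6 brown or beige adipocyte markers tested all had an unadjusted p under 0.05, against 10.7% of all genes tested. Their median was 1.03 on the log2 scale, and 5 of them passed in DESeq2, against 1.84% of all genes. The sum over all 7 markers listed, including a marker too low to be tested, was 521 to 668 CPM in Egr1+/+ and 920 to 1539 CPM in Egr1-/- mice. The 8 stromal progenitor markers had a median of -0.62, with 7 of unadjusted p under 0.05, and summed to 905 to 978 CPM in Egr1+/+ and to 523 to 702 CPM in Egr1-/- mice. The 10 macrophage markers had a median of -0.48, with 5 of unadjusted p under 0.05, and summed to 347 to 494 CPM in Egr1+/+ and to 274 to 331 CPM in Egr1-/- mice. The adipocyte, mural, mammary epithelial and skeletal muscle markers had medians of -0.11, -0.18, 0.05 and -0.74, and their sums overlapped between the genotypes except those of the adipocyte markers, which were 8339 to 9000 and 7057 to 8242 CPM. The skeletal muscle median rested on single mice: it was 0.59 without Egr1+/+ replicate 2, -3.04 without Egr1-/- replicate 3 and -1.89 in the replicate block fit. None of these markers passed an adjusted p of 0.05 in the edgeR QL test, while DESeq2 also called 3 stromal progenitor, 2 macrophage, 1 adipocyte (Lep) and 1 mural (Cspg4) marker. Their part in the levels of the 10 Klf genes was not tested.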

How the data were processed

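RNA-seq of ribosome-depleted total RNA from inguinal SC-WAT was analysed in 3 Egr1+/+ and 3 Egr1-/- mice. The authors mapped reads with TopHat and Bowtie to GRCm38 guided by the GENCODE M8 annotation, and deposited raw read counts per gene from featureCounts, without normalization. The libraries were strand-specific, but the strand and multimapping settings of counting were not given in the sources used here. Genotypes and replicate numbers came from the sample titles.

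Genes were named and placed with the GENCODE M21 annotation of GRCm38, which matched 46574 of 47069 identifiers, and the length of a gene was that of all its exons. The 10 genes and the gene lists were chosen with earlier results of these data known. Counts were tested over all genes in R 4.3.3 with edgeR 4.0.16 (TMM, filterByExpr, quasi-likelihood test, Benjamini-Hochberg adjustment, threshold 0.05). SEs are the log2 fold change over the root of F. DESeq2 1.42.0 and limma 3.58.1 served as alternatives, beside other normalizations, other filters, the replicate number as a block, and each mouse left out in turn. The tests were tested on simulated data. Exact permutation tests were two-sided, on log2 CPM with a prior count of 2. Named were Egr1, the 10 genes, the other Klf and Sp genes, and of each other list up to 4 genes of lowest p, with exceptions stated. Similar transcripts were sought with blastn 2.17.0 at 95% identity over 200 bases. Promoters came from RefSeq, and matches were exact. Of the 10 genes, 9 had over 200 counts in every mouse. Whether depth or the number of mice limits precision more was not tested.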

Additional observations from a re-analysis of the deposited data

How the results depend on the processing

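Over all genes, 3 passed an adjusted p of 0.05 in the quasi-likelihood test. The count was 0 with upper-quartile normalization, 79 with total-count scaling, 552 with no filter on low counts, 0 with at least 10 counts in each mouse, 325 with DESeq2, 1 with limma-voom and 0 with the replicate block. Without single mice it ranged from 0 to 59, the latter without Egr1-/- replicate 1. None of the 10 Klf genes passed an adjusted p of 0.05 in any of these fits. The count of the 10 at an unadjusted p under 0.05 was 2, also with the replicate block and DESeq2, 0 with total-count scaling and 1 to 3 without single mice. It was 1 (Klf2) without Egr1+/+ replicate 1, Egr1+/+ replicate 3 or Egr1-/- replicate 2. Total-count scaling moved the median of all genes to -0.15. It turned the sign of Klf7 (-0.12), Klf9 (-0.0014), Klf16 (-0.0682), Sp1 (-0.13), Sp2 (-0.0193) and Sp4 (-0.0095). Without single mice, log2 fold changes crossed 0 in Klf3 (-0.0658 to 0.0124), Klf4 (-0.23 to 0.0156), Klf7 (-0.0311 to 0.0846), Klf8 (-0.0501 to 0.43), Klf16 (-0.19 to 0.25), Sp1 (-0.0478 to 0.0612), Sp3 (-0.0693 to 0.0311) and Sp6 (-0.29 to 0.62). The causes were not tested. Klf14 passed an adjusted p of 0.05 with total-count scaling (-1.90), no filter (-1.68) and DESeq2 (-1.69), and in no other fit. Of 149 alternative fits of the 10 genes, 143 kept direction and side of the threshold, and the other 6 turned the sign of Klf3, Klf4 or Klf7; with at least 10 counts in each mouse Klf5 was not fitted. Deviations from the genotype means correlated at -0.0888, 0.106 and -0.126 between mice of the same replicate number (1 to 3). Other matchings were not computed, so whether any numbers pair littermates was left undetermined.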
